A study of Mus musculus with 32 samples.

Results

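The calpains are cysteine proteases switched on by calcium, and calpastatin is their protein inhibitor. The genes described here are the calpain genes Capn1, Capn2, Capn3, Capn5, Capn6 and Capn7, the small subunit gene Capns1 and the calpastatin gene Cast, chosen by name, so that they make up 8 of the 33397 genes in the deposited table. They were followed in GAS muscle, the gastrocnemius of the calf, of C57BL/6 mice at 0, 1, 3, 5, 7, 14, 21 and 28 d post denervation, in 8 groups of 4 samples, 32 in all. Denervation was a transection of the sciatic nerve, and the study's methods describe male C57BL/6J mice from which a piece of the left nerve was removed. The labels give the transection as the treatment at 0 d too, while the paper calls its comparison group sham, so the 0 d samples were used as the reference for every later time point. The table's columns for those 4 samples carry the letter C and no time, and they were taken as 0 d because every other time point has columns that name it, so each comparison with 0 d rests on that assignment. The labels state no other treatment or altered allele in any group. The authors deposited FPKM values, fragment counts scaled for exon length and for the fragments of the whole sample, so that levels can be set side by side between genes. The question put to these values was when, and by how much, the transcripts of proteases, subunit and inhibitor moved in the denervated muscle.

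Calpain 1 and calpain 2, the products of Capn1 and Capn2, each pair with the small regulatory subunit from Capns1, and calpastatin blocks these heterodimers. Calpain 3, from Capn3, is found mainly in skeletal muscle, is held in the sarcomere by titin, and is not inhibited by calpastatin, and loss of CAPN3 in people causes a limb-girdle muscular dystrophy. Calpains cut selected sites in cytoskeletal and sarcomeric proteins rather than degrading them fully, and in muscle they are studied for the release of proteins from the sarcomere during wasting and for the repair of torn membranes. A transcript level gives neither the amount of the protease nor its activity, which depends on calcium.

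The 8 genes lie on 7 chromosomes in GRCm38, the build named in the submitters' processing notes, and all are protein-coding in GENCODE release M21. Capn1 (ENSMUSG00000024942) spans chromosome 19 from 5988545 to 6015897 on the minus strand, and Capn2 (ENSMUSG00000026509) spans chromosome 1 from 182467260 to 182517608 on the minus strand. Capns1 (ENSMUSG00000001794) lies on chromosome 7 from 30186936 to 30198811, minus strand, and shares that chromosome with Capn5 (ENSMUSG00000035547, 98121559 to 98178274, minus strand). Capn3 (ENSMUSG00000079110) lies on chromosome 2 from 120456019 to 120504913 on the plus strand, and Cast (ENSMUSG00000021585) lies on chromosome 13 from 74692368 to 74808810 on the minus strand. Capn6 (ENSMUSG00000067276) lies on chromosome X from 143802231 to 143827414, minus strand, and Capn7 (ENSMUSG00000021893) on chromosome 14 from 31336638 to 31371986, plus strand. Values are sums over all exons of a gene, so isoforms from different starts, which Capn1, Capn3 and Cast have, cannot be separated. Exons of Capn3 share 386 bases with Ganc on the same strand (7.69% of its exon length), and exons of Cast share 834 bases with Erap1 on the opposite strand (7.27%), and whether the counting used strand is not given in the sources used here. The antisense gene Gm37885 covers 27.1% of the Capn2 exons but had a mean of 0.00375 FPKM.

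Promoter windows of 250 bases before each RefSeq transcription start (assembly GRCm38.p6) were found for 7 of the 8 genes, 12 windows in all, and Capn5 had no entry. The windows of 3 genes are printed because they belong to the gene with the deepest fall (Capn3) and to the catalytic and the regulatory gene that rose (Capn2 and Capns1). Capitals mark matches to 5 motifs, read on both strands, which were the E-box CANNTG bound by MyoD family factors, the MEF2 site (CTA, any 4 bases, TAG), the MCAT element CATTCC, the GC box GGGCGG and the FoxO site GTAAACA. The windows are chr2:120463343-120463592 on the plus strand for the first Capn3 start, chr1:182517611-182517860 on the minus strand for Capn2 and chr7:30195154-30195403 on the minus strand for Capns1.
Capn3: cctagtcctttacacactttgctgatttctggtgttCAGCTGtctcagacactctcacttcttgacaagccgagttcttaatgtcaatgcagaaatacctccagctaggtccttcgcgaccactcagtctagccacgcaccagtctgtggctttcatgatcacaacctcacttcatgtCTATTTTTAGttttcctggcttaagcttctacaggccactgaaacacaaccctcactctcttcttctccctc
Capn2: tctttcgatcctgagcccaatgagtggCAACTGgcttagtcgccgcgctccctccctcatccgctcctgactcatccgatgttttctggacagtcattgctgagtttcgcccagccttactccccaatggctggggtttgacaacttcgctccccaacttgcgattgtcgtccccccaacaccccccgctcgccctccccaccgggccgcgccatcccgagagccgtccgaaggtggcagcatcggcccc
Capns1: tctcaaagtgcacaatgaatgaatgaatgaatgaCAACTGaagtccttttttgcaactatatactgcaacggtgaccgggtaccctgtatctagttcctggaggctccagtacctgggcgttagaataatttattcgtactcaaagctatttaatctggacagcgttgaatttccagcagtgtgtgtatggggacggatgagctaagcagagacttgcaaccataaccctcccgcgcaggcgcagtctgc
In the Capn3 window the capitals are an E-box (CAGCTG) that begins 214 bases before the start and a MEF2 site (CTATTTTTAG) that begins 72 bases before it. The Capn2 and Capns1 windows each hold 1 E-box (CAACTG), 223 and 216 bases before the start, and no match to the other 4 motifs. Of the 12 windows that of the first Capn3 start alone holds a MEF2 site, which 3.2% of 32851 promoter windows of the same length hold, while an E-box is in 66.2% of them. The window of the second Capn3 start, not printed, holds 1 E-box (CATTTG) and no match to the other 4 motifs. No FoxO site was found in the 12 windows, against 3.17% of all windows. These matches describe letters in the sequence, and binding was not measured.

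The recovered depth was 14199902 to 17561584 fragments per sample (median 16663160). Fragment numbers of the described genes ran from 41 for Capn6 in its lowest sample, a counting error of 15.6%, to 4473 for Capns1, a counting error of 1.495%. The extraction text of the labels speaks of retinas, but the 8 skeletal muscle markers summed to 49353 to 51938 FPKM at 0 d and the 7 retina markers in the table to at most 0.528 FPKM in any sample. In the first 3 d sample the 8 macrophage markers summed to 328.5 FPKM against 602 to 1161 in the other 3 samples, and the 8 fibroblast markers to 271 against 523 to 780, so values at 3 d that turn on it are also given without it. Mitochondrial genes took 14.5% to 18.2% of the fragments at 0 d and 6.70% to 17.1% later, and for the 11943 genes with a mean of at least 1 FPKM the log2 fold change against 0 d had a median of 0.12 at 1 d, 0.20 at 3 d and 0.24 to 0.32 from 5 d. After median-ratio scaling, which sets the median gene to no change, the share of higher genes among all called genes was 44.8% to 49.6%, against 68.7% to 79.5% as deposited, and the main changes against 0 d are therefore given under both scalings. In whole muscle, fewer cells of a type and less RNA per cell cannot be told apart.

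Capn2 and Capns1 were higher than at 0 d from 3 d to the end of the course, and Capn3 was lower from 1 d on. As deposited, Capn3 had its lowest mean at 3 d and Cast its highest, whereas Capn1 fell most at 3 d and returned in part. A gene was called at a Benjamini-Hochberg adjusted p under 0.05 over the 22071 genes tested by limma on log2(FPKM + 1) and a change of at least 1.5-fold, and all 8 genes passed the filter of 0.1 FPKM in at least 4 samples. At 1 d 0 of the 8 genes were called, where 8.84% of all genes were, while 2 had an unadjusted p under 0.05 and limma-voom on the recovered fragments also called 0. At 3 d 4 of the 8 were called, 2 higher and 2 lower, against 19.3% of all genes. At 5, 7, 14, 21 and 28 d 3 were called each time, 2 higher and 1 lower, against 18.8%, 19.5%, 18.5%, 15.7% and 18.3% of all genes. Over all genes, the shares called higher at the 7 time points were 6.34%, 13.2%, 14.9%, 15.4%, 14.6%, 11.8% and 14.2%, and the shares called lower were 2.49%, 6.03%, 3.86%, 4.1%, 3.83%, 3.93% and 4.1%. After median-ratio scaling 0 of the 8 were called higher and 2 lower at 3, 14, 21 and 28 d, 1 higher and 2 lower at 5 and 7 d, and 0 higher and 1 lower at 1 d, where the shares of all genes called higher at the 7 time points were 4.14%, 9%, 6.7%, 7.15%, 6.56%, 6.43% and 6.57% and those called lower were 4.68%, 9.15%, 7.68%, 7.92%, 7.53%, 7.15% and 8.11%. The 7 comparisons use the same 4 samples of 0 d. Counted by samples that did not overlap with those of 0 d, 2 of the 8 genes stood apart at 1 d, 5 at 3 and 5 d, 4 at 7 d, 6 at 14 d and 5 at 21 and 28 d, against 28.5%, 35.3%, 44.8%, 40.9%, 44.9%, 42.9% and 45.7% of all genes. For the 8 genes the log2 fold change had a median of 0.03 at 3 d and 0.25 at 28 d, beside 0.06 and 0.14 over all genes tested and 0.20 and 0.30 over those with a mean of at least 1 FPKM, and one of -0.11 and -0.03 after median-ratio scaling. In an F-test over the course 7 of the 8 passed at an adjusted p under 0.05, as did 63.2% of all genes, and Capn5 did not (limma adjusted p = 0.367).

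**Figure D1:**
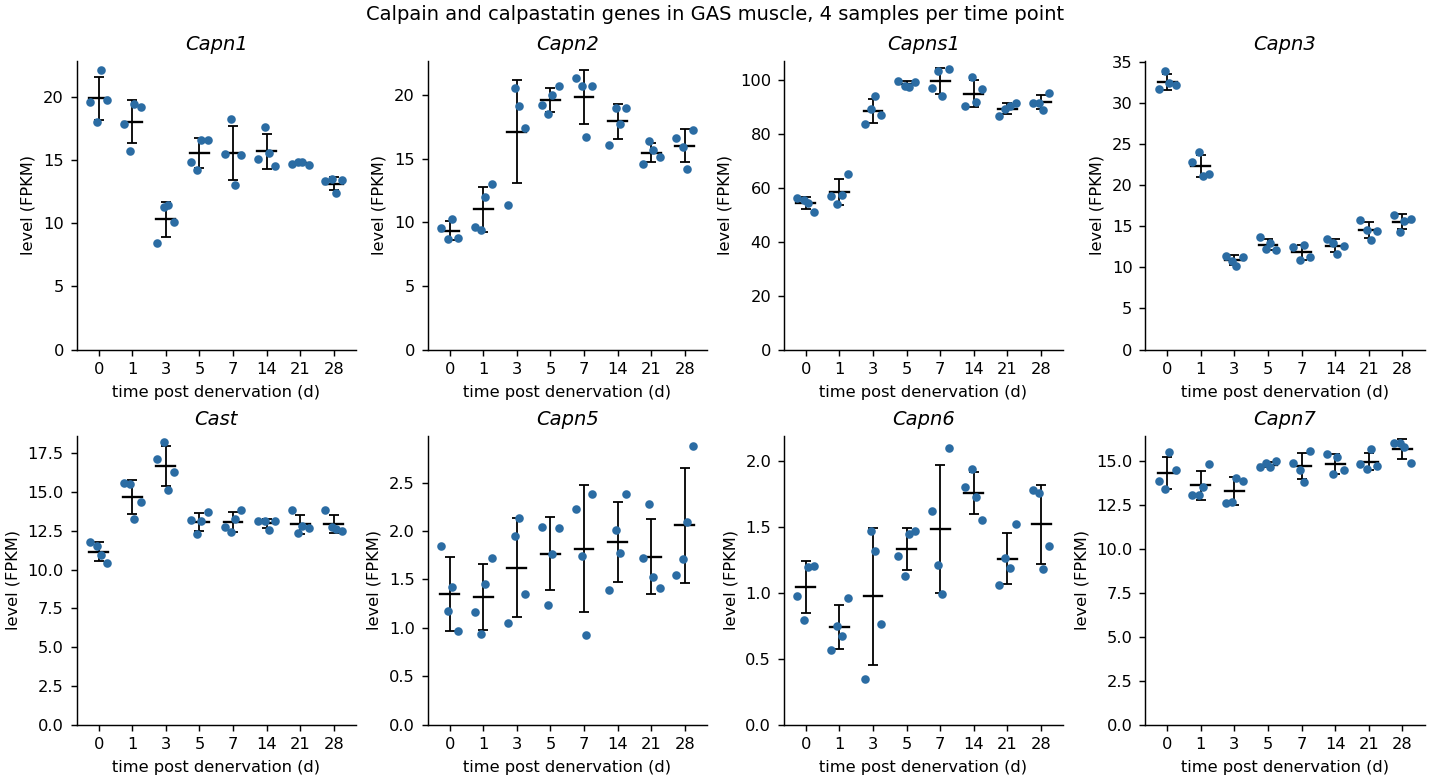
Level of each gene in FPKM (vertical axis, from 0, with a scale of its own in each panel) at each time point post denervation in days (horizontal axis, evenly spaced), with points for the 4 samples and bars for the mean and SD. Capn3 drops from 31.6 to 33.9 FPKM at 0 d to 10.1 to 11.4 at 3 d, Capns1 climbs from at most 56.3 to at least 83.9, and the Capn5 samples overlap at every time point.

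Of Capn1 and Capn2, Capn1 had the higher mean level at 0 and 1 d and Capn2 from 3 d on. Capn1 stood at 19.6, 18.0, 22.1 and 19.7 FPKM in the 4 samples at 0 d, at 17.8, 15.7, 19.4 and 19.2 at 1 d and at 8.41, 11.2, 11.4 and 10.1 at 3 d. All 4 samples at 3 d lay below all samples of 0 and 1 d, a fall of 1.93-fold in the mean (log2 fold change -0.89 ± 0.09, limma adjusted p = 1.32e-09, where ± gives the standard error of a log2 fold change). Its values then were 14.9, 14.2, 16.5 and 16.6 FPKM at 5 d and 15.5, 18.3, 13.1 and 15.4 at 7 d, above every 3 d sample, where the log2 fold changes against 0 d were -0.33 and -0.34. At 14, 21 and 28 d Capn1 stood at 15.1, 17.6, 15.5 and 14.5, at 14.7, 14.8, 14.8 and 14.6 and at 13.3, 13.5, 12.4 and 13.4 FPKM. These later differences had limma adjusted p values of 0.00311, 0.000406 and 4.95e-06 but stayed under 1.5-fold on the log2(FPKM + 1) scale, with -0.56 at 28 d. In mean FPKM, without the pseudocount, the fall at 28 d was 1.51-fold. After median-ratio scaling Capn1 was lower by more at each time point, -1.12 at 3 d and -0.92 at 28 d, and was called at every time point from 3 d. Rescaled to TPM, it was lower by less, -0.77 at 3 d, still called, and -0.16, -0.16 and -0.13 at 5, 7 and 14 d, with limma adjusted p values of 0.268, 0.254 and 0.352. Without the first 3 d sample the change at 3 d was -0.81, still called.

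Capn2 differed from 0 d in the other direction. It stood at 9.59, 8.73, 10.3 and 8.77 FPKM at 0 d, 9.62, 9.41, 12.0 and 13.0 at 1 d and 11.4, 20.5, 19.2 and 17.4 at 3 d. The 1 d samples overlapped those of 0 d, and at 3 d each sample lay above them, by 1.83-fold in the mean (log2 fold change 0.78 ± 0.12, limma adjusted p = 2.81e-06), with the first 3 d sample far below the other 3. Without that sample the log2 fold change at 3 d was 0.96. Capn2 was highest at 5 and 7 d, at 19.2, 18.5, 20.0 and 20.7 FPKM and at 21.3, 20.7, 16.7 and 20.7 FPKM, or 2.098- and 2.13-fold over 0 d (log2 fold changes 1.00 and 1.01, limma adjusted p = 5.24e-08 and 3.82e-08). Thereafter it measured 16.1, 19.0, 17.8 and 19.0 FPKM at 14 d, 14.6, 16.4, 15.7 and 15.2 at 21 d and 16.6, 15.9, 14.2 and 17.3 at 28 d. Every sample from 3 d on exceeded every 0 d sample, and the gene was called at each of those 6 time points, with log2 fold changes of 0.67 at 21 d and 0.72 at 28 d. After median-ratio scaling it was still higher from 3 d (0.37 to 0.66, adjusted p at most 0.000122), but reached 1.5-fold only at 5 and 7 d. The first 3 d sample and the third 7 d sample, the lowest at their time points for Capn2 and also for Capn1, Capn5, Capn6, Capn7 and Capns1, had the lowest macrophage marker sums there (328.5 and 484 FPKM) and the lowest fibroblast sums (271 and 477 FPKM). Over the series the macrophage markers rose from 172 to 251 FPKM at 0 d to 328.5 to 1161 at 3 d and 566 to 660 at 28 d, all 8 of them called higher from 3 d on and above 0 in each group, and their part in the Capn2 result, and in that of Capns1 below, was not tested.

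Capns1, the shared small subunit, was the most abundant of the 8 transcripts at every time point and rose with little spread. It stood at 56.3, 55.7, 54.5 and 51.0 FPKM at 0 d, 57.1, 53.9, 57.5 and 65.1 at 1 d and 83.9, 89.3, 94.1 and 87.1 at 3 d. The 3 d samples all lay above the 0 d samples, by 1.63-fold in the mean (log2 fold change 0.69 ± 0.05, limma adjusted p = 2.51e-12), whereas at 1 d the ranges overlapped (log2 fold change 0.10, limma adjusted p = 0.155). Values peaked at 99.7, 97.9, 97.4 and 99.2 FPKM at 5 d and 97.3, 103, 94.3 and 104 FPKM at 7 d, a 1.83-fold difference at the latter (log2 fold change 0.86 ± 0.05, limma adjusted p = 2.98e-14). The gene then held 90.3, 101, 91.9 and 96.9 FPKM at 14 d, 86.6, 89.4, 90.5 and 91.5 at 21 d and 91.7, 91.6, 89.1 and 95.3 at 28 d. No later sample came back to the 0 d range, and the log2 fold change was still 0.75 at 28 d. Median-ratio scaling kept Capns1 higher from 3 d on (0.37 to 0.49, adjusted p at most 1.03e-06) with no time point at 1.5-fold, and put it at -0.08 at 1 d.

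Capn3, the muscle calpain, had the deepest change of the 8 genes. Its level was 31.6, 33.9, 32.4 and 32.2 FPKM at 0 d, 22.8, 24.0, 21.1 and 21.3 at 1 d and 11.4, 10.8, 10.1 and 11.3 at 3 d. No 1 d sample reached the 0 d range, although the fall of 1.46-fold was under the threshold (log2 fold change -0.53 ± 0.06, limma adjusted p = 4.57e-08), and at 3 d the mean was 2.99-fold lower (log2 fold change -1.50 ± 0.06, limma adjusted p = 5.80e-18). From there Capn3 measured 13.7, 12.3, 13.0 and 12.1 FPKM at 5 d, 12.4, 10.8, 12.7 and 11.3 at 7 d and 13.5, 12.9, 11.6 and 12.6 at 14 d. It measured 15.8, 14.6, 13.3 and 14.4 FPKM at 21 d and 16.4, 14.3, 15.6 and 15.9 at 28 d. The lowest 28 d sample was above every sample of 3, 5, 7 and 14 d, yet the 28 d mean stayed 2.09-fold below 0 d (log2 fold change -1.02, limma adjusted p = 3.22e-14). Without the first 3 d sample the log2 fold change at 3 d was -1.52 for Capn3, and it was 0.72 for Capns1 and 0.53 for Cast. Median-ratio scaling gave larger falls for Capn3, -0.71 at 1 d, where the gene was then called, -1.73 at 3 d and -1.39 at 28 d. Over all alternative runs the largest fall was -1.75, at 7 d, and the samples of 3 and 7 d overlapped. The 8 skeletal muscle markers, which include creatine kinase (Ckm) and the fast myosins Myh1 and Myh4, also fell, to a sum of 25518 to 30012 FPKM at 3 d with 6 of the 8 called lower, and their part in the Capn3 result was not tested. Markers of denervated or immature fibres, such as myogenin and the fetal acetylcholine receptor subunit Chrng, moved the other way, from a summed 10.2 to 14.2 FPKM at 0 d to 416 to 639 FPKM at 3 d.

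Cast, which encodes calpastatin, had its highest mean level at 3 d, where Capn1 and Capn3 had their lowest means as deposited. It stood at 11.8, 11.5, 10.9 and 10.4 FPKM at 0 d, 15.6, 15.5, 13.3 and 14.3 at 1 d and 17.1, 18.2, 15.1 and 16.3 at 3 d. Every sample of 1 and 3 d was above every 0 d sample, by 1.32-fold in the mean at 1 d and 1.496-fold at 3 d, with log2 fold changes of 0.37 and 0.54 and limma adjusted p values of 6.59e-06 and 3.38e-09. In later samples it measured 13.2, 12.3, 13.2 and 13.7 FPKM at 5 d, 12.7, 12.4, 13.3 and 13.9 at 7 d and 13.2, 13.1, 12.55 and 13.1 at 14 d. At 21 d it measured 13.8, 12.3, 12.8 and 12.7 FPKM and at 28 d 13.8, 12.8, 12.6 and 12.5 FPKM, a narrow band above the 0 d samples with log2 fold changes of 0.19 to 0.21 from 5 d on. That later elevation depended on the scaling, since with median-ratio scaling Cast was at -0.09 to -0.17 from 5 to 28 d with limma adjusted p of 0.136 to 0.459, while at 3 d it remained higher (0.32, adjusted p = 0.00271) and at 1 d it was 0.19 (adjusted p = 0.0904). Cast was called at no time point against 0 d with FPKM as deposited, and at 3 d when rescaled to TPM (0.73). The opposite-strand neighbour Erap1 had a mean of 6.25 FPKM.

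The other calpain genes moved less. Capn7, whose product carries domains that bind the ESCRT-III membrane scission machinery, lay between 12.6 and 16.0 FPKM in all 32 samples, with log2 fold changes of -0.10 at 3 d to 0.12 at 28 d, the latter with a limma adjusted p of 0.0411. Median-ratio scaling turned it to -0.23 to -0.33 at every time point (adjusted p at most 0.00191), so the sign of its later differences was set by the scaling. Capn6, which lacks the catalytic cysteine and binds microtubules, was near 1 FPKM. It measured 0.974, 0.791, 1.19 and 1.20 FPKM at 0 d, 0.343, 1.46, 1.32 and 0.760 at 3 d and 1.80, 1.94, 1.73 and 1.55 at 14 d. Its log2 fold change at 3 d was -0.09, and 0.09 without the first 3 d sample. Only at 14 d did all 4 samples exceed the 0 d samples (log2 fold change 0.44 ± 0.14, limma adjusted p = 0.0129), a difference of 1.68-fold in FPKM that is under 1.5-fold after the pseudocount of 1, which understates changes of low genes, and that reached an adjusted p of 0.181 with median-ratio and quantile scaling, while a pseudocount of 0.1, TPM and limma-voom called it higher (log2 fold changes 0.71, 0.75 and 0.76). Capn5, a widely expressed calpain without the calcium-binding domain shared by calpain 1 and calpain 2, measured 1.85, 1.17, 1.42 and 0.965 FPKM at 0 d and 1.54 to 2.88 FPKM at 28 d, and its ranges overlapped those of 0 d at every time point, with a largest log2 fold change as deposited of 0.37 (0.0775 adjusted p by limma). Over the alternative runs its log2 fold change at 28 d reached 0.63. Rescaling to TPM called it higher at 28 d, as it did 28.6% of all genes.

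**Figure D2:**
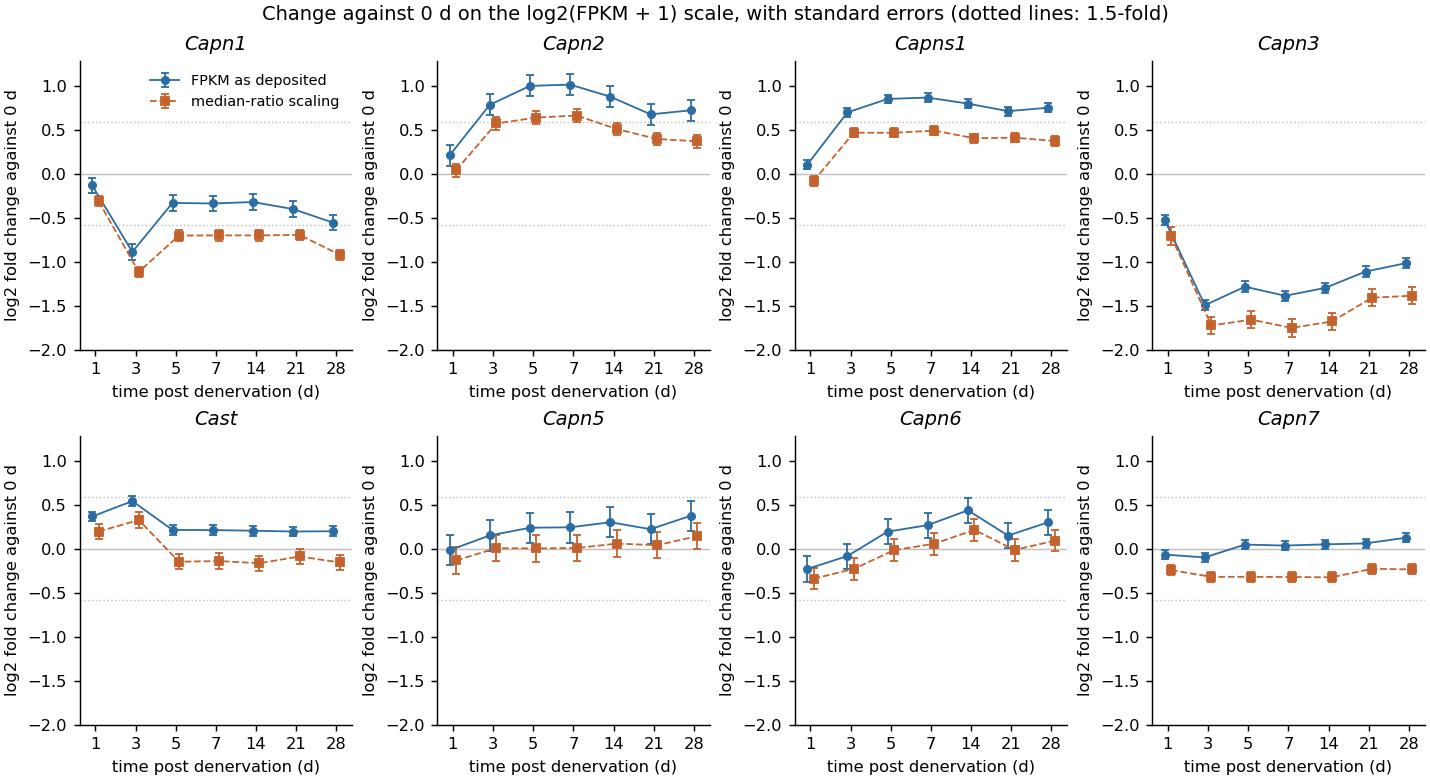
Log2 fold change against 0 d on the log2(FPKM + 1) scale (vertical axis, the same in all panels) by days post denervation (horizontal axis, evenly spaced), with standard errors, for FPKM as deposited (blue circles) and after median-ratio scaling (orange squares), and dotted lines at 1.5-fold. Capn1, Capn3, Capn2 and Capns1 keep their direction from 3 d under both, whereas Cast from 5 d passes from 0.19 to 0.21 as deposited to -0.09 to -0.17.

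Cast rose more from 0 to 1 d (log2 fold change 0.37) than from 1 to 3 d (0.17). For Capn1, Capn2, Capn3 and Capns1 the largest step fell between 1 and 3 d. In that step 3 of the 8 genes were called, against 10.6% of all genes, with Capn3 (log2 fold change -0.97 ± 0.06, limma adjusted p = 2.40e-13) and Capn1 (-0.76, limma adjusted p = 6.41e-08) lower and Capns1 (0.59, limma adjusted p = 1.63e-10) higher. Capn2 passed the adjusted p in that step (0.57, limma adjusted p = 0.000327) but not 1.5-fold, which it did without the first 3 d sample (0.75). After median-ratio scaling Capn3 (-1.02) and Capn1 (-0.80) were still called in that step and Capns1 (0.55) was under 1.5-fold. Between 3 and 5 d the early extremes receded, since Capn1 was higher at 5 d by 0.56 (limma adjusted p = 1.98e-05) and Cast lower by -0.33 (limma adjusted p = 5.68e-05). Capn3 gained 0.21 (limma adjusted p = 0.00892) and Capns1 0.15 (limma adjusted p = 0.0255) over the same interval, but after median-ratio scaling Capn3 was at 0.07 (limma adjusted p = 0.722) and Capns1 at -0.00098 (adjusted p = 1), while Capn1 was at 0.41 and Cast at -0.47, both still under an adjusted p of 0.05. None of the differences as deposited reached 1.5-fold in limma, so 0 genes were called where 5.76% of all genes were, although 5 had an unadjusted p under 0.05 and limma-voom called 1, Capn1. From 5 to 7 d, 7 to 14 d, 14 to 21 d and 21 to 28 d 0 of the 8 were called by limma or by limma-voom, against 0.657%, 0.634%, 0.453% and 0.199% of all genes, and 1 unadjusted p was under 0.05 in these 4 steps, that of Capn3 from 14 to 21 d.

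Ratios between genes within a sample do not depend on scaling between samples. They were compared with 0 d by two-sided exact permutation tests of the mean log2 ratio, for which 0.0286 is the smallest p with 4 against 4 samples, and 21 of the 28 tests reached it, with an adjusted p of 0.0381 over the 28. Capn2 relative to Capn1 was 0.490, 0.484, 0.465 and 0.444 at 0 d, 0.540, 0.600, 0.619 and 0.680 at 1 d and 1.35, 1.83, 1.68 and 1.73 at 3 d. The ratio was above all 0 d values in every sample from 1 d on, and the log2 difference was 0.37 at 1 d, 1.80 at 3 d and 1.37 at 28 d. Among the 3 d samples the first had the lowest ratio, and without it the log2 difference was 1.89. Hence the balance of the catalytic transcripts shifted from Capn1 towards Capn2 at all 7 time points.

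The summed catalytic transcripts, Capn1 plus Capn2, were also set against inhibitor and subunit. Relative to Cast they were 2.48, 2.32, 2.96 and 2.74 at 0 d, 1.76, 1.62, 2.36 and 2.25 at 1 d and 1.16, 1.75, 2.02 and 1.69 at 3 d. All 3 d samples lay below the 0 d samples, with a log2 difference of -0.69 (exact permutation p = 0.0286, adjusted p = 0.0381), whereas the 1 d samples overlapped them (log2 difference -0.41, exact permutation p = 0.0571). From 5 to 28 d the mean ratio was 2.26 to 2.72 against 2.63 at 0 d, and no test in that period reached an adjusted p under 0.05. The first 3 d sample had the lowest ratio, and the log2 difference without it was -0.53. Capns1 relative to Capn1 plus Capn2 was 1.93, 2.08, 1.68 and 1.79 at 0 d and 3.06, 3.11, 3.35 and 3.11 at 28 d, and it exceeded every 0 d value in all samples from 3 d on. Its log2 difference was 0.81 at 3 d (0.69 without the first 3 d sample) and 0.76 at 28 d, and 0.11 at 1 d, where the ranges overlapped (exact permutation p = 0.229). Capn3 relative to Capn1 plus Capn2 went from 1.08, 1.27, 1.00 and 1.13 at 0 d to 0.338, 0.278, 0.428 and 0.312 at 7 d and 0.549, 0.486, 0.588 and 0.519 at 28 d. Each later sample lay below the 0 d range, with log2 differences of -0.53 at 1 d, -1.74 at 7 d and -1.06 at 28 d.

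**Figure D3:**
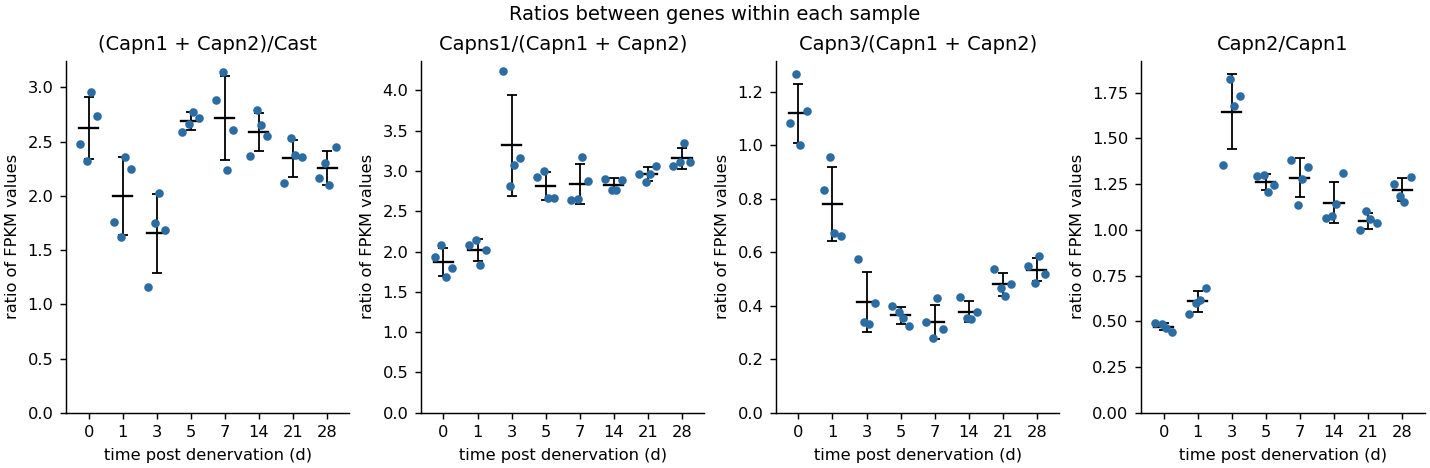
Ratios of FPKM values within each sample (vertical axes, from 0) by days post denervation (horizontal axis, evenly spaced), with points for the 4 samples and bars for the mean and SD. The ratio of Capn1 plus Capn2 to Cast is low at 3 d (1.16 to 2.02) and back at 2.59 to 2.78 at 5 d, while Capn2 to Capn1 stays above 0.490, the highest 0 d value, at every later time point.

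The order of the 8 transcripts by level per length changed with denervation. At 0 d it ran Capns1, Capn3, Capn1, Capn7, Cast and Capn2, each apart from the next in all samples, and then Capn5 and Capn6, whose ranges overlapped. By mean level at 3 d Capns1 was followed by Capn2, Cast, Capn7, Capn3, Capn1, Capn5 and Capn6. Capn3 overlapped Capn1, and Capn5 overlapped Capn6. The Capn2 samples (11.4 to 20.5 FPKM) overlapped those of Cast, Capn7, Capn3 and Capn1, and the first 3 d sample, the lowest, alone brought them into the range of Capn7, Capn3 and Capn1. Capn3 thus moved from the second place (32.5 ± 0.961 FPKM, mean ± SD, n = 4) to the fifth (10.9 ± 0.587), and Capn2 from the sixth (9.34 ± 0.742) to the second (17.1 ± 4.04). At 28 d Capns1 (91.9 ± 2.57 FPKM) stood first, Capn2, Capn7 and Capn3 followed at 15.6 to 16.0 FPKM with overlapping ranges, and Capn1 and Cast came next at 13.1 and 12.9 FPKM, also overlapping.

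The genes most like each of the 8 were taken by Pearson's r of log2(FPKM + 1) over the 32 samples, among 11935 other genes with a mean of at least 1 FPKM. These coefficients describe a shared course over the time points, and the samples also share group and scaling. For Capn2 the leading genes were Ywhah (r = 0.977) and the GTPase gene Dnm2 (0.969), which acts in vesicle scission. For Capns1 they were the sulfhydryl oxidase Qsox1, the major vault protein Mvp and the small GTPase Rhoc (0.978 to 0.980), and Qsox1 went from 2.20 FPKM at 0 d to a highest group mean of 18.0. For Capn3 they were Phtf2 (0.984), the adenylate kinase Ak1 (0.979) and 2310065F04Rik (0.976), with Ak1 at 439 FPKM at 0 d and 113 at its lowest group mean. Capn1 was followed most closely by the Golgi enzymes Man2a2 and St3gal3 and the glucose transporter Slc2a3 (0.898 to 0.902). Cast went with the metallothionein Mt1 (0.914), the zinc finger gene Zfand2a (0.895) and the asparaginyl-tRNA synthetase Nars (0.892), and Mt1 had a group mean of 8.09 FPKM at 0 d and of 415 at its highest. The remaining genes, low or steady in level, went with Bscl2, Rab34 and Rab3d for Capn5 (0.862 to 0.889), Ltbp1, Tmem86a and Tm7sf3 for Capn6 (0.879 to 0.913) and Bbs2, Prickle1 and Col4a5 for Capn7 (0.820 to 0.839).

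The remaining calpain genes were scarce in GAS muscle. Of Capn8, Capn9, Capn10, Capn11, Capn12, Capn13, Capn15 and Capns2, 5 passed the filter, and 0 were called at any time point with FPKM as deposited, while rescaling to TPM called 1 or 2 of them higher at each time point, where it called 12.1% to 30.7% of all genes higher. Capn10 and Capn15, the most abundant, had means over all samples of 1.42 and 1.44 FPKM. Capn15 went from a mean of 0.911 FPKM at 0 d to 1.74 at 3 d (log2 fold change 0.52, limma adjusted p = 7.42e-06). This rise was under 1.5-fold only after the added pseudocount, which understates changes of low genes.

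Genes that encode partners and substrates of the calpains moved in part. Of 10 cytoskeletal proteins that calpains cleave, 2 were called higher at 1 d, 6 at 3 d, 7 at 5 d, then 5 at every later time point, while 0 were called lower at any of them, against 6.34%, 13.2%, 14.9% and then 11.8% to 15.4% of all genes called higher. The list's median log2 fold change at 3 d was 0.72, against 0.06 over all genes tested and 0.20 over those with a mean of at least 1 FPKM. Filamin C (Flnc) rose from 74.5 FPKM at 0 d to 581 at 3 d (log2 fold change 2.95, limma adjusted p = 2.88e-20), and talin 1 (Tln1) rose from 15.3 to 51.3 (log2 fold change 1.68). After median-ratio scaling 4 were called higher at 3 d and 2 at 28 d, against 9% and 6.57% of all genes, again with 0 lower, and the median turned from 0.08 to -0.09 at 1 d only. Without the first 3 d sample 5 were called higher at 3 d. All 8 macrophage markers were also called higher from 3 d on while of the 8 fibroblast markers 0 were called at 3 d, and 5, 4, 3, 2 and 2 were called higher at the 5 later time points in turn, and their part in the result of the list was not tested. The spectrin genes Sptan1 and Sptbn1, classic calpain substrates, were at 0.02 and 0.03 at 3 d.

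Among 10 titin N2A and Z-disc partners, which include ligands of the titin region that holds calpain 3, 4 were called higher and 0 lower at 3 d, and 5 higher and 1 lower at 28 d, where 13.2% and 14.2% of all genes were called higher and 6.03% and 4.1% lower. At 1 d 2 were called higher and 2 lower, against 6.34% and 2.49% of all genes. At 14 d 5 were called higher and 2 lower, against 14.6% and 3.83%. After median-ratio scaling the counts were 4 higher and 2 lower at 3 d and 3 higher and 2 lower at 28 d, against 9% and 6.57% of all genes higher and 9.15% and 8.11% lower. Ankrd1 rose from 3.84 FPKM at 0 d to 1360.4 at 3 d (log2 fold change 8.16), and Ankrd2 rose from 132 to 1025 (2.95), both stretch-responsive proteins that bind titin N2A. The alpha-actinin gene Actn2 was lower at 1 d (-0.87) and the Z-disc gene Myot was lower at 7 d (-0.80), while titin (Ttn) itself was called at no time point, with 0.12 at 3 d. The list had a median of 0.15 at 3 d, which median-ratio scaling turned to -0.08, and of 0.41 to 0.69 from 5 to 28 d, which that scaling moved to 0.02 to 0.39. Of 10 dysferlin membrane repair genes 1 was called at each time point, where 8.84% of all genes were called at 1 d and 15.7% to 19.5% later. It was caveolin 3 (Cav3), lower at 1 d (-0.69), and from 3 d on dysferlin (Dysf), higher by 1.28 at 3 d, from 7.62 to 19.9 FPKM, and by 0.83 at 28 d. With median-ratio scaling Dysf was under 1.5-fold at 21 and 28 d (0.53 and 0.49), and Cav3 was called lower at 1, 3, 14, 21 and 28 d (-0.69 at 3 d and -0.90 at 28 d). Rescaled to TPM, 3 of the 10 were called higher at 3, 5, 7 and 14 d and 2 at 21 and 28 d, against 21.8% to 30.7% of all genes. Without the first 3 d sample 6 of the 10 were called higher at 3 d against 15.4% of all genes, namely Dysf (1.31), Anxa2 (1.08), Myof (0.80), Anxa1 (0.76), S100a10 (0.76) and Trim72 (0.60), so the count at 3 d depended on that 1 sample, whose macrophage and fibroblast marker sums were the lowest at 3 d. The median of the repair list was 0.39 at 3 d and 0.26 at 28 d, which median-ratio scaling moved to 0.16 and -0.11.

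**Figure D4:**
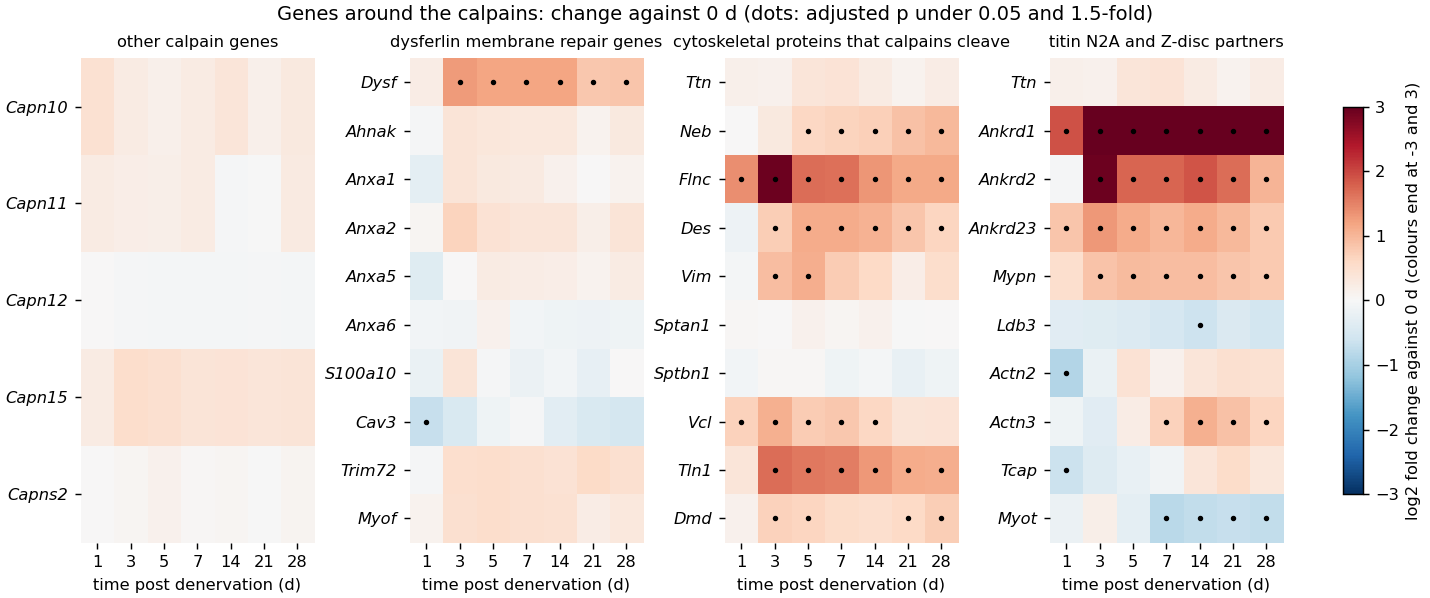
Log2 fold change against 0 d for FPKM as deposited (colour scale, ends at -3 and 3) for the tested genes of the 4 surrounding lists (rows) by days post denervation (columns), with a dot where the adjusted p is under 0.05 and the change at least 1.5-fold. Flnc, Tln1, Ankrd1 and Ankrd2 are dark red at 3 d, Dysf carries a dot from 3 d on, and the other calpain genes carry none.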

How the data were processed

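RNA of 32 GAS muscle samples was sequenced. The authors deposited 1 FPKM value per gene and sample for 33397 genes, and the submitters' processing notes list CASAVA, HISAT2 2.1.0, DESeq2 and the build GRCm38. Which program counted fragments, and whether it used strand, is not given in the sources used here. Samples were grouped by the time in their labels, and the table's columns name no individual sample. Those of 1 to 28 d name their time point, and the 4 columns lettered C were taken as 0 d, the group that no other column names. The 4 columns of a time point served as its replicates, named in column order, and 0 columns were left unused. With GENCODE M21 exon lengths, matched for 33356 genes, the FPKM values gave back whole fragments for 99.3% of the values under 200 fragments (tolerance 0.02), a depth of 14199902 to 17561584 per sample. Replicates correlated at r = 0.961 or more across 11943 genes, and every pair differed by more than counting noise.

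The values were tested as log2(FPKM + 1) with limma 3.58.1 in R 4.3.3 (moderated with a variance trend), in 1 fit of all 32 samples and of the 22071 genes with at least 0.1 FPKM in at least 4 samples, with Benjamini-Hochberg adjustment per comparison. This step was tested on simulated data for 7 d against 0 d, with changes planted only in genes of higher fragment number. The simulated data held no shift of all genes. They therefore do not bear on low genes such as Capn5 and Capn6 or on the scaling. Ratios were tested by exact permutation in Python 3.11.15 with scipy 1.17.1, beside numpy 2.4.6, pandas 2.3.3 and matplotlib 3.10.9. All 8 genes were named, and beside them the 3 genes most correlated with each (1 of those for Capn2 is not reported here) and, of each surrounding list, up to 2 genes with the largest rise and 2 with the largest fall among those called, with Capn10, Capn15, Ttn, Sptan1, Sptbn1, Anxa1, Anxa2, Myof, S100a10 and Trim72 named in addition after their values were seen. Leaving the first 3 d sample out of the list counts was also chosen after the data were seen. Members and gene lists were chosen with earlier results of these data known. The alternatives were the pseudocount, the filter, TPM, median-ratio and quantile scaling, leaving out mitochondrial genes, the variance trend, a fit of 2 groups, limma-voom on fragments, no fold threshold, the median of log2 ratios, a pseudocount in the ratios and leaving out each sample. Protein data and the knockout mice were not analysed here.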

Additional observations from a re-analysis of the deposited data

Results flagged for a closer look

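Within single time points, 3 of the 64 groups of 4 values held a sample far from the others by Dixon's criterion, and chance alone marks about 1 in 20 groups. Capn1 in the third sample of 28 d was at 12.4 FPKM against 13.3 to 13.5 in the other samples, Capn2 in the third sample of 7 d was at 16.7 against 20.7 to 21.3, and Cast in the third sample of 14 d was at 12.55 against 13.1 to 13.2.

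The effect of denervation differed between 1 and 3 d by at least 1.5-fold for 3 genes, tested as the difference between these time points with limma, and 2 more, Capn2 (0.57) and Cast (0.17), had a limma adjusted p under 0.05 at a smaller size. For Capn3 the difference on the log2 scale was -0.97 (limma adjusted p = 2.40e-13), for Capn1 -0.76 (limma adjusted p = 6.41e-08) and for Capns1 0.59 (limma adjusted p = 1.63e-10).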

How the results depend on the processing

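No paired analysis was possible because the columns of the table carry no replicate number that ties a sample to its label. Median-ratio and quantile scaling each called 1 gene at 1 d (Capn3) in place of 0 and 2 at 3 d in place of 4, and each also called 2, both lower (Capn1 and Capn3), in place of 3 at 14, 21 and 28 d and from 1 to 3 d, while at 5 and 7 d they called 3 and 4. At 14 and 28 d a pseudocount of 0.1, TPM and limma-voom each called 4 in place of 3, with Capn6 added at 14 d, and TPM called 5 at 3 d, with Cast added. At 28 d the gene added by TPM was Capn5, higher, and the genes added there by the other settings are not reported here. Over all genes a pseudocount of 0.1, TPM and limma-voom called 7277, 7216 and 7373 at 28 d, and TPM called 6358 at 3 d. Without the fold threshold the number called was 2 at 1 d, 5 at 5, 7 and 21 d, 6 at 14 and 28 d, 5 from 1 to 3 d (in place of 3) and 5 from 3 to 5 d (in place of 0). Of the 22071 genes tested, that setting called 6493 at 1 d, 10068, 10429 and 9227 at 5, 7 and 21 d, and 10434 and 10518 at 14 and 28 d. It called 6814 from 1 to 3 d and 5248 from 3 to 5 d. From 3 to 5 d, 1 gene (Capn1) was called with a pseudocount of 0.1, with TPM or with limma-voom, which called 2646, 2071 and 2835 of all genes. The median of log2 ratios gave 0 of 28 tests in place of 21, since its smallest exact permutation p was 0.0571.

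Leaving out 1 sample at a time, the number called was 0 at 1 d, 4 at 3 d, 3 at 5, 7, 14 and 21 d, 3 to 4 at 28 d, 2 to 4 from 1 to 3 d and 0 to 1 from 3 to 5 d. Capn1 was called at 28 d without 0 d replicate 2, and from 3 to 5 d without 3 d replicate 2 or 3 or 5 d replicate 2. From 1 to 3 d Capns1 lost its call without 1 d replicate 2 or 3 d replicate 3, and Capn2 gained one without 1 d replicate 3 or 4 or 3 d replicate 1. Ratios with 3 against 4 samples cannot go below an exact permutation p of 0.0571.

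Leaving out the mitochondrial genes ended the calls of Capn2 at 21 d (0.58) and of Capns1 from 1 to 3 d (0.55) and added Capn1 at 28 d (-0.67). No called value reversed under any alternative run, while uncalled values changed sign for 26 of 104 gene comparisons with median-ratio and 18 with quantile scaling. Over all genes, dropping the fold threshold called 10434 genes at 14 d in place of 4075, and a pseudocount of 0.1, limma-voom and TPM called 7138, 7315 and 7610.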
